A study of Mus musculus with 8 samples.

Results

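The 8 genes Dusp1, Dusp2, Dusp4, Dusp5, Dusp6, Dusp10, Spry1 and Spry2 encode feedback inhibitors of MAP kinase signalling and are described here across sorted mouse CD4+ T cells. They were taken as every probe set whose platform annotation names 1 of these symbols. That gave 10 probe sets out of 45037 tested, and 8 genes out of 18193 with a probe set of 1 symbol. Dusp10 and Spry2 each had 2 probe sets, and the 1 with the higher mean over all arrays stands for the gene. Samples were 8 Affymetrix arrays of total RNA from CD4+ T cells of mice whose Foxp3 allele, encoding the X-linked transcription factor of regulatory T cells, was tagged with enhanced green fluorescent protein (EGFP). Cells carried either the mutant allele named delta or the wild-type allele (WT), both tagged, and were sorted by EGFP; the tagged cells came from hemizygous male mice. The groups were delta EGFP-positive (n = 3), WT EGFP-positive (n = 3), delta EGFP-negative (n = 1) and WT EGFP-negative (n = 1). No source used here gives an age or strain, what the delta change is, or whether the arrays of a group came from separate animals, so p-values measure a spread that may be technical.

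Dual-specificity phosphatases of this family remove phosphate from both the threonine and the tyrosine that switch a MAP kinase on. Most of their genes are themselves induced by MAP kinase activity, so they close a negative feedback loop. In T cells this loop limits the strength and length of signals from the antigen receptor. Sprouty proteins act further upstream and dampen signalling from receptors through RAS to the kinase ERK. Within the family, Dusp1, Dusp2, Dusp4 and Dusp5 proteins sit in the nucleus, Dusp6 is a cytoplasmic phosphatase of ERK, and Dusp10 prefers the stress kinases JNK and p38.

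Levels are log2 of the deposited intensity, and a difference of 1 is a 2-fold change. A gene is called changed where limma's moderated test, fitted to all arrays and probe sets, gave a Benjamini-Hochberg adjusted p under 0.05. Median intensity per array lay between 53.3 and 54.7. The T cell markers Cd3d, Cd3e, Cd3g, Cd4 and Cd28 all stood above the array median in every array, while 3 of 3 erythroid and platelet genes lay below it in the 6 EGFP-positive arrays. The probe set of the targeted gene, Foxp3, read 11.1, 11.51 and 11.21 in delta EGFP-positive cells, against 4.75, 4.86 and 4.64 in WT EGFP-positive cells, with 6.14 in delta and 4.52 in WT EGFP-negative cells. In the arrays labelled WT EGFP-positive this probe set thus read near the WT EGFP-negative array, unlike what the label implies for Foxp3. The other readings went with the label: 5 of the 6 regulatory T cell markers were called higher in WT EGFP-positive than in WT EGFP-negative cells. Among them were Ikzf2, by 4.18, and Il2ra, by 4.56. No source says whether the probe set covers sequence that the tagging or the mutation changed. Groups are therefore named as labelled, and each direction between alleles rests on those labels.

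The start regions of Dusp1, Dusp5 and Dusp10 are shown first, since these 3 genes varied most among the WT EGFP-positive arrays. RefSeq's GRCm38.p6 table matched 7 of the 8 genes, not Dusp4, with 250 bases before and 50 after each annotated start. Capitals mark the cyclic AMP response element TGACGTCA and its short form TGACG on either strand, the CCAAT box on either strand and the serum response letters known as the CArG box, which were added after the sequences had been seen.
Dusp1, chr17:26508423-26508722, minus strand: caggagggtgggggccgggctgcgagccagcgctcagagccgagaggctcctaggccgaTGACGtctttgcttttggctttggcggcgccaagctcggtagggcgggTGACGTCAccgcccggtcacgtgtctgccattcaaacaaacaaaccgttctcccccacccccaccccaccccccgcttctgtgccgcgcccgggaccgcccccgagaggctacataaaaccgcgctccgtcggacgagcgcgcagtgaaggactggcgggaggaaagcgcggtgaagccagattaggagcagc
Dusp5, chr19:53528895-53529194, plus strand: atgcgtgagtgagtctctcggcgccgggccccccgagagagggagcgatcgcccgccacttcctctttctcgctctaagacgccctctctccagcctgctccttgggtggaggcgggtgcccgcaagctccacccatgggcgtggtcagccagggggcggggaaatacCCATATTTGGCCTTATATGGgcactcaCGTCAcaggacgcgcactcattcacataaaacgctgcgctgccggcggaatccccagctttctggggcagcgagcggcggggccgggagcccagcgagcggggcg
Dusp10, chr1:184034131-184034430, plus strand: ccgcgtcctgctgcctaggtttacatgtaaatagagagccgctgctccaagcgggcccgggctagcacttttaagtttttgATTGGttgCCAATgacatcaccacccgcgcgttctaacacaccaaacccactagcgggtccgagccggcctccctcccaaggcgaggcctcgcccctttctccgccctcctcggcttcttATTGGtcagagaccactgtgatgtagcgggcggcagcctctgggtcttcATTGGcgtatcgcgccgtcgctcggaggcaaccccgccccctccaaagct

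The Dusp1 window held the full response element at -143 from the start, letters found in 1.79% of 32851 promoter windows and in 1 of the 7 member windows. The short form, which lies within the full element, occurred in 3 of the 7 (Dusp1, Dusp2 and Dusp5), against 20.8% of all windows. Dusp5 held 2 CArG boxes side by side at -82 and -72, against 1.63% of all windows with any. Dusp10 held 4 CCAAT boxes and no response element, with CCAAT in 3 of the 7 windows and in 37.4% of all. Further letters searched on both strands were GCGGGGGCG (EGR), in 1 of the 7 and 2.91% of all, CACGTG (E-box), in 2 and 7.15%, and GGAAAA (NFAT), in 1 and 23.4%. TGANTCA (AP-1, 7.81% of all), CCGGAAG (ETS, 8.86%), TGTTTAC (forkhead, 3.65%) and TATAAA (a core promoter element, 13.6%) occurred in none of the 7 windows. A match describes these letters and is no evidence of a bound factor.

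The largest contrast among the 8 genes was that of Dusp4, a nuclear phosphatase, which rose in WT EGFP-positive cells. It stood at 10.97, 9.01 and 10.91 in WT EGFP-positive cells, against 5.43 in the WT EGFP-negative array. All 3 WT EGFP-positive arrays lay far above the single EGFP-negative array, whose value sat at the 44.1 percentile of its probe sets. The difference was 4.87 (SE 0.68, 95% interval 3.29 to 6.44, limma adjusted p = 0.019). Leaving out replicate 1 or 3 of WT EGFP-positive cells, or replicate 1 or 2 of delta EGFP-positive cells, ended the call. So did the title number range as a block (limma adjusted p = 0.061), log2(intensity + 16) (0.057) and a fit of only the groups compared (0.14), and over all alternatives the limma adjusted p ran from 8e-05 to 0.14. In delta cells Dusp4 stood at 9.75, 9.42 and 9.59 in EGFP-positive arrays, against 8.29 in the EGFP-negative array. These groups did not overlap either, but the difference of 1.3 did not pass (SE 0.68, limma adjusted p = 0.6). The delta EGFP-negative array read 2.86 above the WT EGFP-negative array, so the single arrays outside the EGFP gate were far apart in this gene. From high to low the group levels ran WT EGFP-positive, delta EGFP-positive, delta EGFP-negative and WT EGFP-negative. Delta and WT EGFP-positive cells did not differ past the threshold, nor did delta EGFP-positive and delta EGFP-negative cells. The gap between the single EGFP-negative arrays was not tested. These arrays also differed in the 6 regulatory T cell markers, which summed to 5310 in delta and 1250 in WT EGFP-negative cells. What part this had in the Dusp4 comparisons was not tested.

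Only Dusp4 of the 8 genes was called between WT EGFP-positive and WT EGFP-negative cells, against 1.1% of all probe sets, while 3 had an unadjusted p under 0.05, against 9.41%. Spry1, which restrains signalling downstream of the antigen receptor, came next. It stood at 8.58, 8.15 and 8.95 in WT EGFP-positive cells, against 7.18 in WT EGFP-negative cells, and at 8.35, 8.21 and 8.2 in delta EGFP-positive cells, against 7.65 in delta EGFP-negative cells. In both alleles each EGFP-positive array was above the EGFP-negative one. The differences of 1.38 (SE 0.28, limma adjusted p = 0.081) and 0.61 (SE 0.28, adjusted p = 0.54) did not pass. Dusp5, the nuclear phosphatase of ERK, showed the same order of arrays: 11.96, 9.6 and 11.75 in WT EGFP-positive cells, against 8.84 in WT EGFP-negative cells. The difference was 2.26 (SE 0.85, limma adjusted p = 0.44). In delta cells Dusp5 stood at 10.57, 10.35 and 9.52 in EGFP-positive arrays, against 9.09 in the EGFP-negative array (difference 1.05, SE 0.85, limma adjusted p = 0.76).

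Non-overlapping arrays were found for 3 of the 8 genes in the WT comparison, against 53% of all probe sets, and for 4 of 8 in the delta comparison, against 57.4%. In delta cells 0 of the 8 genes were called, against 0.0755% of all probe sets, and 0 had an unadjusted p under 0.05, against 9.73%. The median difference of the 8 genes was 0.64 in WT cells, where the median of all probe sets was -0.01, and 0.21 in delta cells, where it was 0. Whether the EGFP difference itself differed between alleles was tested as an interaction, which called 0 of the 8 genes, against 0.04% of all probe sets. Of the 8, 1 had an unadjusted p under 0.05, against 6.14%: Dusp4, with -3.57 (SE 0.96, 95% interval -5.79 to -1.35, limma adjusted p = 0.53).

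**Figure D1:**
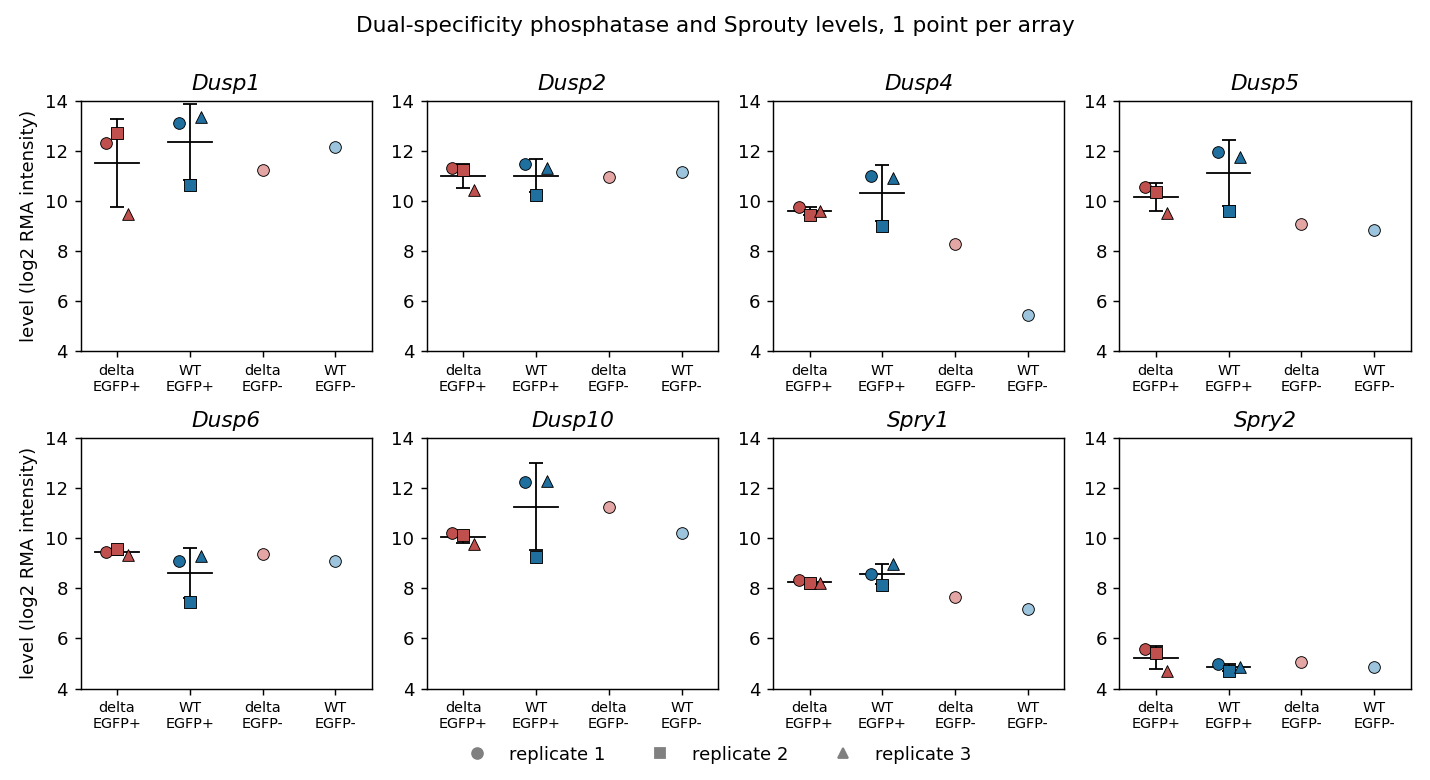
Level of each of the 8 genes in every array (vertical axis, log2 RMA intensity) by group (horizontal axis); each point is 1 array, its shape gives the replicate, and in the groups of 3 the bar is the mean and the whisker the SD. WT EGFP-positive replicate 2 (blue square) is the lowest of its group in all 8 panels, and delta EGFP-positive replicate 3 (red triangle) the lowest of its group in 7.

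Between the EGFP-positive groups labelled delta and WT, none of the 8 genes was called (0 of 8, against 12.7% of all probe sets), and 0 had an unadjusted p under 0.05, against 24.9%. Of the 8 differences, 6 were negative, with a median of -0.51 beside -0.01 for all probe sets. The intervals were wide. For most of these genes 1 WT array read far below the other 2, while Dusp1 varied in both groups and Spry2 mainly among the delta arrays. The missed threshold therefore does not show equal levels in both groups.

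Dusp10, the phosphatase of stress kinases, had the largest difference in size of the 8 genes, and its spread lay nearly all in the WT arrays. It stood at 10.21, 10.13 and 9.77 in delta EGFP-positive cells, against 12.25, 9.25 and 12.28 in WT EGFP-positive cells. The delta arrays lay close together, 2 WT arrays lay above all of them and WT replicate 2 below all of them. The difference was -1.22 (SE 0.74, 95% interval -2.93 to 0.49, limma adjusted p = 0.38). A further Dusp10 probe set followed the same arrays, at 6.8, 6.44 and 6.52 in delta EGFP-positive cells, against 9.13, 5.91 and 9.16 in WT EGFP-positive cells (-1.48, SE 0.79, limma adjusted p = 0.31). In the EGFP-negative arrays Dusp10 read 11.25 in delta and 10.22 in WT cells, so the delta EGFP-negative array was above each delta EGFP-positive array. That EGFP difference in delta cells was -1.21 (SE 1.04, limma adjusted p = 0.78).

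Dusp1, an early-response phosphatase that acts on ERK, JNK and p38, stood at 12.29, 12.72 and 9.48 in delta EGFP-positive cells, against 13.11, 10.62 and 13.35 in WT EGFP-positive cells. One array in each group was low, delta replicate 3 and WT replicate 2, and the groups overlapped. The means were 11.5 ± 1.76 and 12.36 ± 1.51 (SD, n = 3 each), with a difference of -0.86 (SE 0.97, 95% interval -3.11 to 1.39, limma adjusted p = 0.68). In the EGFP-negative arrays it read 11.24 in delta and 12.13 in WT cells, within the range of the EGFP-positive arrays of each allele. Dusp1 therefore separated arrays of 1 label more than it separated groups.

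Dusp2, a nuclear phosphatase known from lymphoid cells, was nearly level over the groups. It stood at 11.3, 11.22 and 10.43 in delta EGFP-positive cells, against 11.46, 10.25 and 11.29 in WT EGFP-positive cells (difference -0.01, SE 0.35, 95% interval -0.83 to 0.8, limma adjusted p = 0.99), with 10.94 in delta and 11.14 in WT EGFP-negative cells. The low arrays were the same as for Dusp1. Dusp5, given above, differed by -0.96 between delta and WT EGFP-positive cells (SE 0.6, limma adjusted p = 0.4), and Dusp4 by -0.71 (SE 0.48, limma adjusted p = 0.44). In both genes WT replicates 1 and 3 lay above all delta arrays. WT replicate 2 lay below every delta array for Dusp4, and below 2 of 3 for Dusp5.

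Dusp6, the cytoplasmic ERK phosphatase, was the 1 gene of the 8 whose arrays did not overlap between these groups, against 29% of all probe sets. It stood at 9.43, 9.56 and 9.34 in delta EGFP-positive cells, against 9.09, 7.45 and 9.29 in WT EGFP-positive cells. The highest WT array was just under the lowest delta array, and most of the gap came from WT replicate 2. The difference was 0.83 (SE 0.43, 95% interval -0.17 to 1.84, limma adjusted p = 0.3). With that array left out it was 0.25 (SE 0.14, limma adjusted p = 0.29, and 0.081 to 0.49 over all alternatives). The EGFP-negative arrays read 9.38 in delta and 9.08 in WT cells, close to the EGFP-positive arrays apart from that 1 array.

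The Sprouty genes differed little between alleles. Spry1 differed by -0.31 between delta and WT EGFP-positive cells (SE 0.2, 95% interval -0.76 to 0.15, limma adjusted p = 0.41), with overlapping arrays. Spry2, a relative with a similar role, read low throughout: 5.58, 5.41 and 4.72 in delta EGFP-positive cells, against 4.99, 4.71 and 4.87 in WT EGFP-positive cells, with 5.07 in delta and 4.85 in WT EGFP-negative cells. These values lay between the 27.3 and the 47 percentile of their arrays, and no detection calls were used here, so the level may be near background. The difference of 0.38 did not pass (SE 0.22, limma adjusted p = 0.36). Its other probe set differed by -0.03 (SE 0.12, limma adjusted p = 0.92).

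WT EGFP-positive replicate 2 was the lowest array of its group for 8 of the 8 genes, against 34.1% of all probe sets. For 6 of the 8 (Dusp1, Dusp2, Dusp4, Dusp5, Dusp6 and Dusp10) it lay at least 2-fold below both other WT EGFP-positive arrays, as did 1.82% of all probe sets. Its gap to the mean of the other 2 ran from -3.02 for Dusp10 and -2.61 for Dusp1 to -0.62 for Spry1 and -0.22 for Spry2, beside a median of 0.02 over all probe sets. Delta EGFP-positive replicate 3 was the lowest of its group for 7 of 8 genes, against 33.1% of all probe sets, but only Dusp1 lay at least 2-fold below both others (gap -3.03), against 0.222%. The spread within a group differed between genes. The SD of Dusp10 was 0.23 in delta and 1.74 in WT EGFP-positive cells, that of Dusp6 0.11 and 1.01, and that of Dusp4 0.16 and 1.12, while Dusp1 varied in both groups.

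**Figure D2:**
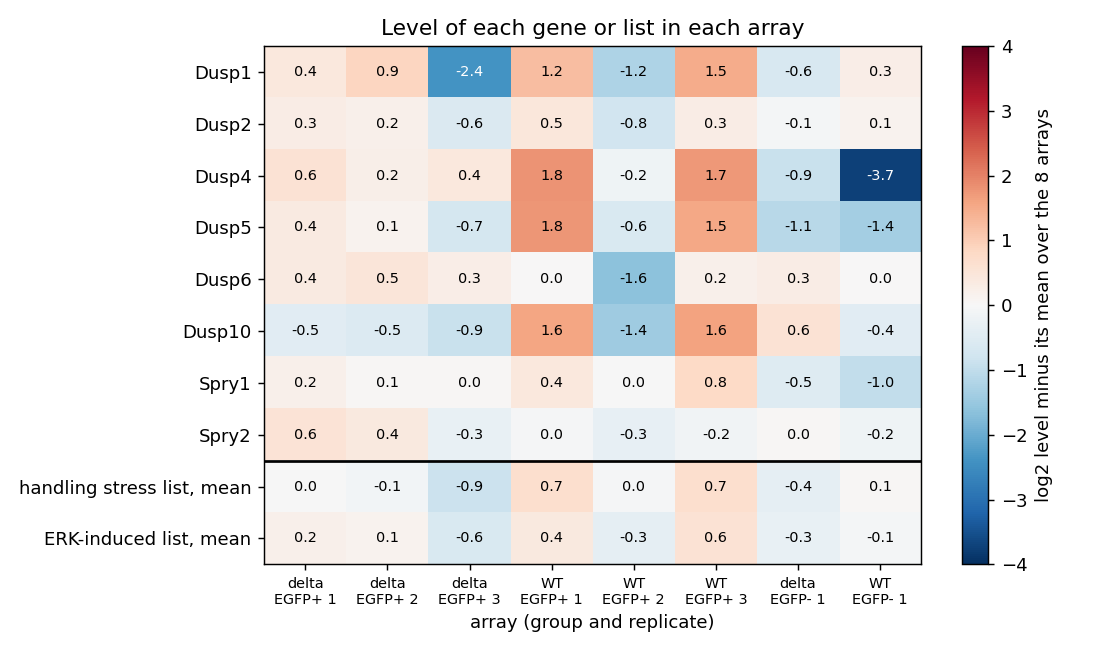
Level of each of the 8 genes, and the mean of 2 gene lists, in each array (columns, by group and replicate), as the log2 level minus its mean over the 8 arrays; red is above and blue below that mean. WT EGFP-positive replicates 1 and 3 are high together for Dusp1, Dusp4, Dusp5 and Dusp10. Delta EGFP-positive replicate 3 is the lowest array for Dusp1 and for both lists, which share Fos, Fosb, Jun, Junb, Egr1, Ier2 and Ier3.

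In each EGFP-positive group the mean of genes that respond to cell handling was lowest in the same arrays, WT replicate 2 and delta replicate 3. The mean of 23 immediate-early and heat shock genes, none of them a member, was 10.32, 10.23 and 9.48 in delta EGFP-positive cells, against 11, 10.3 and 11 in WT EGFP-positive cells, with 9.98 in delta and 10.4 in WT EGFP-negative cells. Single genes did not all follow that mean. In WT EGFP-positive replicates 1, 2 and 3 Jun read 11.66, 9.96 and 11.77, and Dnajb4 10.44, 8.42 and 10.51. Hspa1b (9.11, 10.75 and 7.74), Hspa1a (6.51, 7.26 and 5.95) and Dnaja1 (11.99, 12.05 and 11.84) were highest in replicate 2. Between delta and WT EGFP-positive cells 9 of the 23 were called, against 12.7% of all probe sets and 25.7% with probe sets of low intensity left out. In this list 2 genes rose and 7 fell in delta relative to WT EGFP-positive cells, with a median difference of -0.66. With its mean as a covariate, 3 of the 8 members were called, against 6.36% of all probe sets, all of them higher in delta cells. Dusp1 differed by 1.95 (SE 0.3, limma adjusted p = 0.012), Dusp2 by 0.96 (SE 0.19, limma adjusted p = 0.031) and Spry2 by 0.9 (SE 0.21, limma adjusted p = 0.048). For Dusp1 and Dusp2 the covariate turned the direction. It also turned that of Dusp4 (0.21), Dusp5 (0.61), Dusp10 (0.41) and Spry1 (0.03), none of which passed. The covariate itself tended to be lower in delta than in WT EGFP-positive cells. Over the 8 arrays its Pearson's r was 0.87 with Dusp1, 0.66 with Dusp2 and 0.07 with Spry2, which read low throughout. The adjusted differences therefore do not separate the group from the covariate. What part handling had in these differences was not tested.

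Without WT EGFP-positive replicate 2 and delta EGFP-positive replicate 3, the arrays with the lowest mean of that list in their groups, 5 of the 8 genes were called between delta and WT EGFP-positive cells, against 17.7% of all probe sets. These arrays were left out after their values had been seen, and they are also the low arrays for most members, so this fit is a description of the remaining arrays. In it Dusp10 differed by -2.09 (SE 0.14, limma adjusted p = 0.00015), Dusp5 by -1.4 (SE 0.16, adjusted p = 0.001), Dusp4 by -1.36 (SE 0.16, adjusted p = 0.0013), Dusp1 by -0.72 (SE 0.19, adjusted p = 0.032) and Spry2 by 0.56 (SE 0.15, adjusted p = 0.037). Dusp10, Dusp5, Dusp4 and Dusp1 were thus lower in the delta arrays that remained, while Dusp2, Dusp6 and Spry1 differed by -0.11, 0.31 and -0.49 and did not pass. With only WT EGFP-positive replicate 2 left out, 3 genes were called, against 16.8% of all probe sets: Dusp10 (-2.23), Dusp5 (-1.71) and Dusp4 (-1.35).

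The same arrays changed the other comparisons. Without both, 5 of the 8 genes were called in WT EGFP-positive over WT EGFP-negative cells, against 4.1% of all probe sets, all of them higher: Dusp4 (5.51), Dusp5 (3.01), Dusp10 (2.05), Spry1 (1.59) and Dusp1 (1.11). In delta EGFP-positive over delta EGFP-negative cells 3 were called, against 0.722%, with Dusp5 (1.37) and Dusp4 (1.3) higher and Dusp10 (-1.07) lower. The interaction called Dusp4 (-4.21, SE 0.28, limma adjusted p = 0.004) and Dusp10 (-3.12, SE 0.24, limma adjusted p = 0.006), against 0.38%. These comparisons share arrays, and the EGFP-negative side is a single array each time. Both arrays were left out after their values had been seen and are the low arrays for most members. The small SEs and adjusted p-values follow in part from that choice, so these fits too only describe the remaining arrays.

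**Figure D3:**
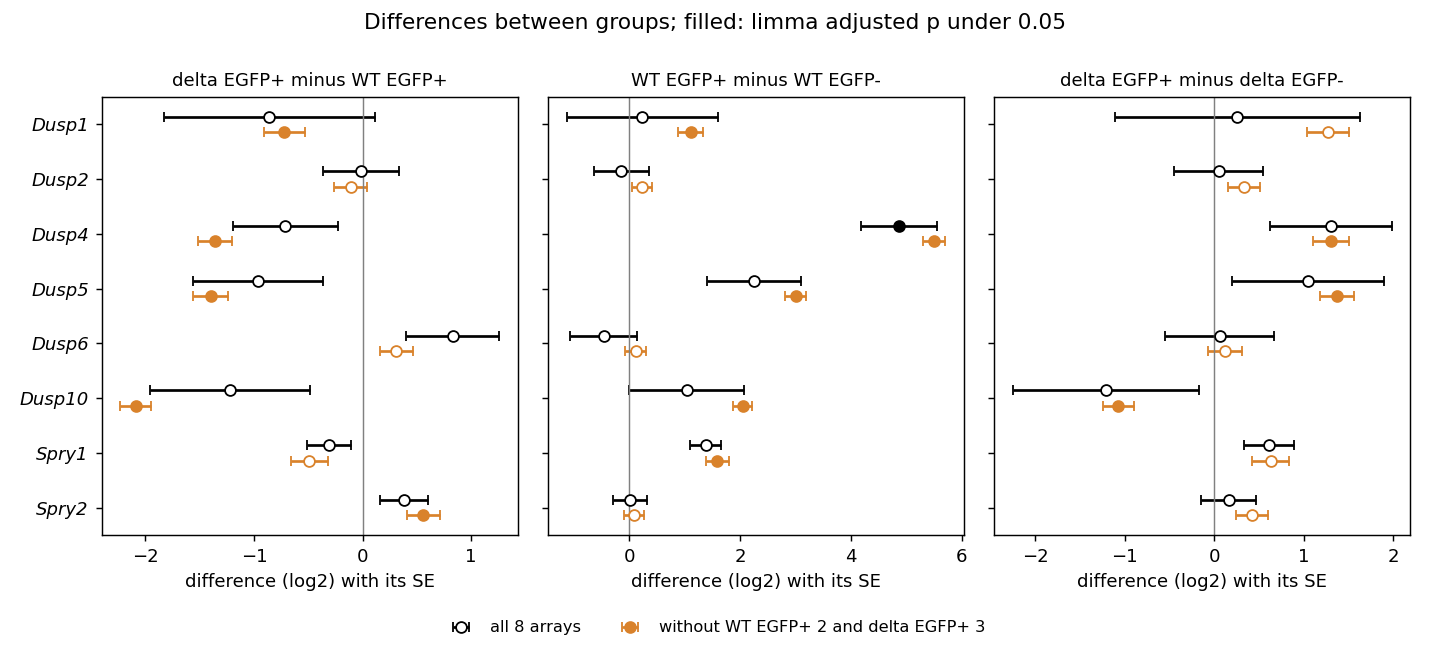
Difference between groups on the log2 scale with its SE (horizontal axis) for each of the 8 genes (vertical axis) in 3 comparisons, with all 8 arrays (black) and without WT EGFP-positive replicate 2 and delta EGFP-positive replicate 3 (orange); filled points passed limma's adjusted p of 0.05. With all arrays only Dusp4 is filled, in the WT comparison. More points are filled without the 2 arrays, which were left out after their values had been seen.

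The sample titles carry numbers that begin with 76, 82 or 85, each range with 1 delta and 1 WT EGFP-positive array. No source calls these ranges batches. Both EGFP-negative arrays fall in range 76, so each EGFP comparison sets EGFP-positive arrays of 3 ranges against 1 array of range 76. Within range 76 the EGFP-positive array was above the EGFP-negative array in Dusp4 by 5.54 in WT and by 1.46 in delta cells. In range 76, 6 of the 8 genes were lower in the delta than in the WT EGFP-positive array, with a median of -0.52, and 3 were at least 2-fold lower, against 4.81% of all probe sets. In range 85, 7 of the 8 were lower, with a median of -1.09, and 4 at least 2-fold lower, against 3.31%. In range 82, which holds WT replicate 2, 0 of the 8 were lower, the median was 0.82, and 2 were at least 2-fold higher, against 3.25%. Dusp10 differed by -2.04, 0.88 and -2.51 in the 3 ranges, Dusp5 by -1.4, 0.75 and -2.23, and Dusp6 by 0.34, 2.12 and 0.05. With the range as a block 0 of the 8 genes were called, against 10.4% of all probe sets. In the pair of EGFP-negative arrays 2 of the 8 genes were at least 2-fold higher in delta, Dusp4 (2.86) and Dusp10 (1.03), against 2.82% of all probe sets, and 0 were at least 2-fold lower, against 1.72%.

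Markers of other cells were read in the same arrays. The summed intensity of 8 myeloid markers was 400 to 606 in delta EGFP-positive cells, against 429 to 1510 in WT EGFP-positive cells, with 442 in delta and 398 in WT EGFP-negative cells. Between 2 and 6 of these 8 lay below the array median. Csf1r, the receptor for macrophage colony-stimulating factor, stood at 7.13, 6.57 and 5.88 in delta EGFP-positive cells, against 8.36, 6.81 and 9.85 in WT EGFP-positive cells. Its lowest WT EGFP-positive array was replicate 2, as for the phosphatases, and Cd68 also read low there (gap -1.51 to the mean of the other 2). Replicate 2 was not the lowest of those arrays for Lyz2 (5.59, 5.67 and 6.17), Cd14 (5.43, 5.74 and 6.47) or Csf3r (5.03, 5.47 and 5.2). B cell markers summed to 293 to 379 in delta EGFP-positive cells, against 321 to 443 in WT EGFP-positive cells, with 2 to 4 of 6 below the array median. The CD8 genes Cd8a and Cd8b1 summed to 156 to 628 in delta EGFP-positive cells, against 138 to 218 in WT EGFP-positive cells. Cd8a stood at 8.5, 8.84 and 5.95 in delta EGFP-positive cells, against 6.36, 5.22 and 6.29 in WT EGFP-positive cells. Cd8b1 overlapped between the groups, at 6.82, 7.41 and 6.56 against 6.86, 6.66 and 7.13. NK cell markers summed to 144 to 173 in delta EGFP-positive cells, against 75.4 to 85.7 in WT EGFP-positive cells. Below the array median lay 2 of 3 in delta and 3 of 3 in WT EGFP-positive cells. Of these Klrk1 stood at 6.78, 6.6 and 6.81 in delta EGFP-positive cells, against 4.76, 5.1 and 5.02 in WT EGFP-positive cells. Ncr1 overlapped between the groups, at 5.57, 5.1 and 5.23 against 5.13, 5.22 and 5.3. Markers of stroma summed to 651 to 731 in delta EGFP-positive cells, against 1010 to 1180 in WT EGFP-positive cells, with 996 in delta and 1260 in WT EGFP-negative cells and 1 of 4 below the array median in each array. Of these 4 only Pecam1, an adhesion molecule of endothelium and of some leukocytes, was called (-1.07, SE 0.17, limma adjusted p = 0.0055). The part of such cells in the values of the 8 genes was not tested, and in RNA of sorted cells fewer cells of a type and less RNA per cell cannot be told apart.

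Likeness between genes was described by Pearson's r over the 8 arrays, among genes with an SD of at least 0.5; these arrays fall into 4 groups and share the low arrays, so r is a description only. Closest to Dusp1 were Ppp1r15a (0.964), which encodes a stress-induced phosphatase subunit, Rgs2 (0.959), a regulator of G protein signalling, and Fos (0.955), an early-response transcription factor. Closest to Dusp4 were Plagl1 (0.996), the inhibitory receptor Ctla4 (0.976) and Pmaip1 (0.967), a pro-apoptotic gene. Spry1 was most like Dusp4 itself (0.956), then Klf9 (0.956) and Plagl1 (0.948). Dusp5 was most like the NF-kappaB subunit Rel (0.985), Mthfs (0.983) and the nuclear receptor Rora (0.974). Dusp2 resembled Rab26os (0.923), Tnfaip3 (0.912), an inhibitor of NF-kappaB, and Dusp1 (0.905). Dusp10 resembled Taf7 (0.942), Gdap10 (0.932) and Slc15a2 (0.923), and Dusp6 Taf1d (0.886), Cd68 (0.866) and Rnf19a (0.865). Spry2 resembled Dtl (0.929), which acts in DNA replication, Cd8a (0.885) and Alg13 (0.874). Cd8a stood at 8.5, 8.84 and 5.95 in delta EGFP-positive cells, against 6.36, 5.22 and 6.29 in WT EGFP-positive cells.

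Other genes of MAP kinase signalling were compared between delta and WT EGFP-positive cells in lists, beside the 12.7% of all probe sets called in that comparison. Of 8 measured genes for other MAP kinase phosphatases 0 were called. Dusp16, a phosphatase of JNK and p38, had the largest difference of those named here. It stood at 7.68, 8.43 and 7.43 in delta EGFP-positive cells, against 6.99, 5.75 and 6.99 in WT EGFP-positive cells (difference 1.27, SE 0.38, limma adjusted p = 0.072). Ppm1a, which encodes a serine/threonine phosphatase, differed by -0.47 (SE 0.13, limma adjusted p = 0.062). Of 17 atypical dual-specificity phosphatases and relatives 2 rose and 1 fell: Dusp22 (0.8) and Dusp19 (0.75) rose, and Ssh2, a phosphatase of the actin regulator cofilin, fell by 1.13. Of the 5 other Sprouty and Spred genes 0 were called; Spred3 differed by 0.2 and Spred2 by 0.13. The median differences of these 3 lists were -0.14, -0.04 and 0.08.

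Of 20 measured genes for RAS and the ERK cascade 2 rose and 4 fell, with a median of -0.03. These 6 of 20 stood against 12.7% of all probe sets, and 25.7% with probe sets of low intensity left out. At most 1 of the 20 lay below the median of its array. Sos1, an activator of RAS, fell by 1.26, the RAS inhibitors Rasal1 and Rasa3 fell by 1 and 0.65, and the scaffold Ksr1 rose by 0.76. Of 16 genes for JNK and p38 signalling 2 rose and 4 fell, 6 of 16 against the same 12.7% and 25.7%, with a median of -0.04. Mapk12, a p38 kinase, fell to 5.21, 5.08 and 5.07 in delta EGFP-positive cells, against 6.84, 6.72 and 6.76 in WT EGFP-positive cells (difference -1.65, SE 0.11, limma adjusted p = 0.00017). It also rose in WT EGFP-positive over WT EGFP-negative cells (5.11 in WT EGFP-negative cells, difference 1.66, SE 0.15, limma adjusted p = 0.0036). Another p38 kinase, Mapk11, fell by 0.95, while Map2k3 and Mapkapk3, which act above and below p38, rose by 0.88 and 0.71.

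Of 21 genes typically induced through ERK 1 rose and 0 fell, with a median of -0.35. Ier3, an early-response gene linked to survival, stood at 8.55, 8.37 and 7.66 in delta EGFP-positive cells, against 6.15, 5.11 and 6.97 in WT EGFP-positive cells (difference 2.12, SE 0.44, limma adjusted p = 0.019). Every delta array was above every WT array. Without WT EGFP-positive replicate 2 and delta EGFP-positive replicate 3, 4 of the 21 rose and 9 fell, with a median of -0.44. In that fit 17.7% of all probe sets were called. Those arrays were left out after their values had been seen, and had the lowest means of the handling list in their groups. That list shares Fos, Fosb, Jun, Junb, Egr1, Ier2 and Ier3 with these 21 genes, so the counts only describe the remaining arrays. Of these pathway lists, called genes in the WT comparison with all arrays were limited to Mapk12, and the delta comparison and the interaction called 0 genes of the 6 lists.

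**Figure D4:**
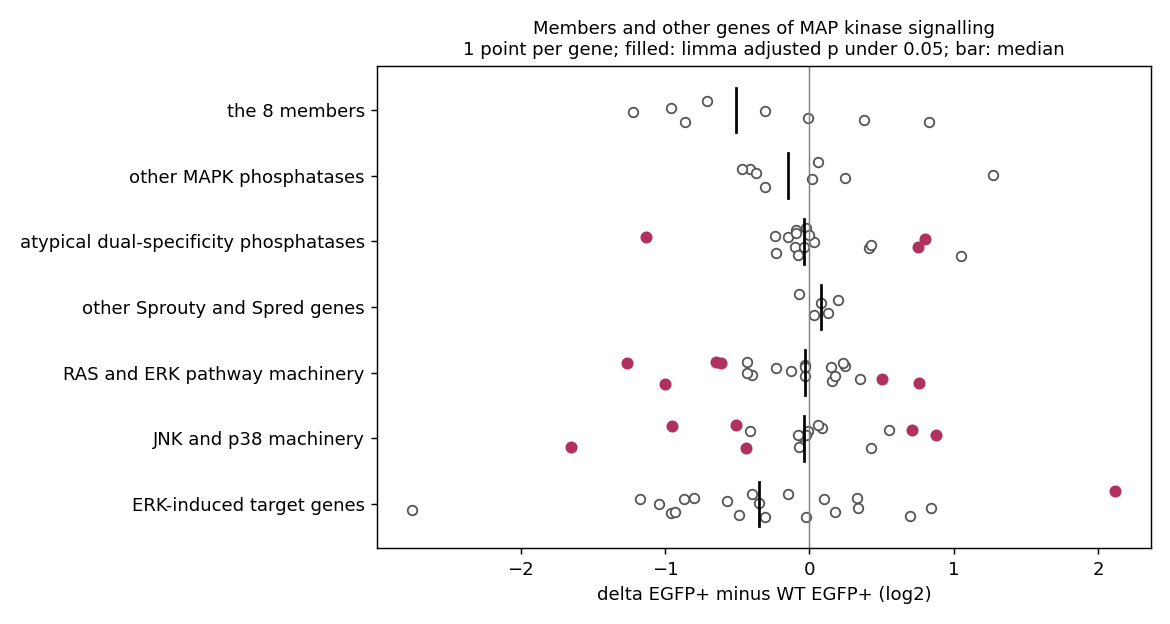
Difference between delta and WT EGFP-positive cells on the log2 scale (horizontal axis) for the 8 genes and for 6 lists of other genes of MAP kinase signalling (rows), 1 point per gene with a bar at the median; filled points passed limma's adjusted p of 0.05. The 8 genes have a median of -0.51 and no filled point, and the lists of RAS and ERK and of JNK and p38 genes each have 2 filled points above and 4 below 0.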

How the data were processed

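Total RNA of sorted CD4+ T cells was biotin-labelled by the Affymetrix method, per the labels' protocols. Intensity per probe set, not on a log scale, is what the authors deposited, from RMA according to the submitters' processing notes, and no source gives its version. RMA corrects background, normalizes by quantiles and understates differences at low intensity. Log2 was taken without a pseudocount, 45037 probe sets were tested and 64 controls dropped. Of these 34945 had 1 symbol, 932 several and 9160 none here. A mean per group was fitted to all 8 arrays with limma 3.58.1 in R 4.3.3 (4 residual and 3.72 prior degrees of freedom), with two-sided tests adjusted over all probe sets. Each single EGFP-negative array is thereby taken to vary as the groups of 3 do. The fit was tested on simulated arrays. Genes named are the 8 members, per list up to 4 called genes by size or else up to 2 with the smallest p, and the 3 genes most like each member. The members, lists and tests were chosen with earlier results of these data known. Alternatives covered low probe sets, normalization, pseudocount, moderation, weights, probe sets, title ranges, a stress covariate and single arrays. With 3 arrays a side, an exact permutation test has a smallest p of 0.1.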

Additional observations from a re-analysis of the deposited data

Results flagged for a closer look

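The EGFP difference itself differed between alleles for 3 regulatory T cell genes read as markers, by limma's interaction test. For Foxp3 the difference in delta cells exceeded that in WT cells by 4.9 (SE 0.28, limma adjusted p = 0.0044), with the reservation on its probe set given above. For Ikzf2 it was smaller in delta cells by -3.55 (SE 0.21, limma adjusted p = 0.0044), and for Il2ra by -2.85 (SE 0.28, limma adjusted p = 0.045). Ikzf2 was nearly level in EGFP-positive cells, at 12.12, 12.11 and 12.09 in delta against 12.26, 12.13 and 12.09 in WT. Its single EGFP-negative arrays read 11.48 in delta and 7.98 in WT cells. Il2ra read 7.47 and 5.38 there, against 9.06, 9.45 and 9.07 in delta and 10, 10.02 and 9.82 in WT EGFP-positive cells. All 3 calls were lost with the title number range as a block, where the interaction called 0 of 45037 probe sets. None of the 8 phosphatase and Sprouty genes met that test with all arrays.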

How the results depend on the processing

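Between delta and WT EGFP-positive cells the count of called members was 0 with all arrays, 3 with the stress list's mean as covariate, 0 to 3 without single arrays and 5 without the 2 low arrays, an alternative chosen after seeing the data. In the WT comparison it was 1, then 0 with log2(intensity + 16), with only the groups compared and with the title ranges as a block, 2 with array weights and with the mean of all probe sets of a gene, 0 to 4 without single arrays and 5 without the 2 low arrays. In the delta comparison it was 0, and 3 without the 2 low arrays. The interaction count was 0, then 0 to 2 without single arrays and 2 without the 2 low arrays. Over all probe sets the counts ranged from 2865 to 7972, against 5734 as reported, from 83 to 1845 against 496, from 1 to 325 against 34, and from 0 to 171 against 18, in the same order of comparisons. The labels give no replicate numbers. With the title ranges as a block, which pairs the EGFP-positive arrays, the member counts were 0 in all 4 comparisons, and the block ended the Dusp4 call. The shares of all probe sets called with the block were 10.4%, 0.184%, 0.00222% and 0%, in the same order of comparisons.

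Directions turned for differences that had not passed. Between delta and WT EGFP-positive cells the stress covariate gave Dusp1 1.95, Dusp2 0.96, Dusp4 0.21, Dusp5 0.61, Dusp10 0.41 and Spry1 0.03. Dusp2 gave 0.01 with centred arrays, and Dusp1 and Dusp2 ranged from -1.73 to 0.15 and from -0.39 to 0.26 without single arrays. In the WT comparison Dusp1 gave -1.14 with the covariate and -0.26 to 1.11 without single arrays. Dusp2 gave 0.02 with array weights, 0.25 with the block, 0.24 without the 2 low arrays and -0.37 to 0.24 without single arrays; Dusp6 gave 0.12 without the 2 low arrays and -0.81 to 0.12 without single arrays. Spry2 gave -0.01 with repeated quantile normalization, -0.02 with centring, -0.25 with the covariate and -0.06 to 0.08 without single arrays. In the delta comparison Dusp1, Dusp2 and Spry2 ranged from -0.35 to 1.27, from -0.11 to 0.33 and from -0.01 to 0.42 without single arrays. In the interaction Dusp1 gave -0.27 with array weights and -0.85 to 1.03 without single arrays, Dusp2 and Spry2 ranged from -0.19 to 0.46 and from -0.01 to 0.42, and Dusp6 gave 0 without the 2 low arrays and -0.05 to 0.87 without single arrays. The cause of these turns was not tested. Signal over background limits Spry2, whose probe sets read low in every array.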
